A study of Mus musculus with 1778 samples.

Results

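Anterior forebrain-like neuroepithelial cells made up 13.9% (exact 95% interval 12.3 to 15.7%) of the 1728 cells kept from a single-cell RNA sequencing study of mouse cranial neural crest. They were selected on measured values. A cell was counted when at least 2 of the 5 genes Fezf1, Rax, Hesx1, Lhx2 and Foxd4 each reached 20 CPM while Sox10 and Kdr were each under 20 CPM, where CPM are the counts of a gene scaled to the cell's total outside the spike-ins and Rn45s. The other 1487 kept cells were the comparison. The study profiled 1778 Tomato-labelled cells, of which 50 had too few reads or genes and were left out. All came from C57BL/6 embryos carrying Wnt1::Cre and Rosa26TdTomato, dissected at the 4, 6, 8 or 10 somite stage, and each cell was sorted into its own well for Smart-Seq2, a full-length method without molecular identifiers. The Cre was driven by Wnt1, so the cells are those that a Wnt1-driven recombinase had labelled, and every embryo of every stage carried the same 2 transgenes. The submitters named all cells cranial neural crest. The 7-digit number in each cell's title is read here as the plate, and the 8 plates are lettered A to H in ascending order. By stage and plate, the anterior forebrain-like cells were 18 on plate D and 44 on plate F at 4 somites, 7 on B, 56 on E, 52 on F and 31 on H at 6, 12 on B and 1 on D at 8, and 2 on B and 18 on C at 10. Embryos and litters are not named in the labels. Each stage is therefore 1 pool, cells are not replicates, and no test or p-value is given. Intervals cover counting error only.

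At these stages the front of the neural plate is being divided into telencephalon, eye field, hypothalamus and diencephalon. Transcription factors such as Six3, Hesx1, Rax, Lhx2 and Fezf1 act in that region, and local inhibitors of Wnt signalling keep it from taking on the fate of the midbrain. The crest arises further back, along the dorsal border of the neural plate, where Wnt and BMP signals are strong and factors such as Foxd3, Tfap2b, Ets1 and Sox10 are switched on. In the mouse, the forebrain ahead of the diencephalon is generally described as giving rise to no crest.

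The anterior forebrain-like cells took a smaller share of the sorted cells at the later stages. They made up 28.2% of kept cells at 4 somites (62 of 220 cells, interval 22.3 to 34.6%), 17.5% at 6 (14.97 to 20.2%), 5.73% at 8 (13 cells, 3.08 to 9.59%) and 4.48% at 10 somites (20 cells, 2.76 to 6.84%). Cells with Sox10, which the rule left out, moved the other way and made up 10.9%, 30.4%, 70.9% and 78.3% of kept cells at these stages. Among the kept cells with Sox10 below 20 CPM, whatever their Kdr, those with at least 2 of the 5 markers made up 32.7% at 4, 25.1% at 6, 19.7% at 8 and 21.6% at 10 somites, a smaller fall. At 8 somites 24 cells had at least 2 markers and were left out for Sox10 or Kdr, beside the 13 that were taken. The plate also moved with the share. At 4 somites the share was 19.6% on plate D and 34.4% on plate F. At 6 somites it was 9.72% on plate B, 15.01% on E, 28.9% on F and 16.5% on H, and 0 of 22 cells on A, which allows a share of up to 13.6% by a floor of 3 cells and has an exact upper limit of 15.4%. Of those 22 cells, 9 had at least 2 markers together with Sox10 or Kdr. Plate F had the highest share at both stages it held, and there 4 and 6 somites had overlapping intervals (26.2 to 43.3% and 22.4 to 36.1%). On plate B, which held 3 stages, the shares were 9.72% at 6, 5.66% at 8 and 3.64% at 10 somites. The intervals of 6 and 8 somites overlapped there as well, and the part of the plate in the fall with stage was not tested. The gate decides which cells were sorted, so these are shares of the sort and not of the embryo.

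**Figure D1:**
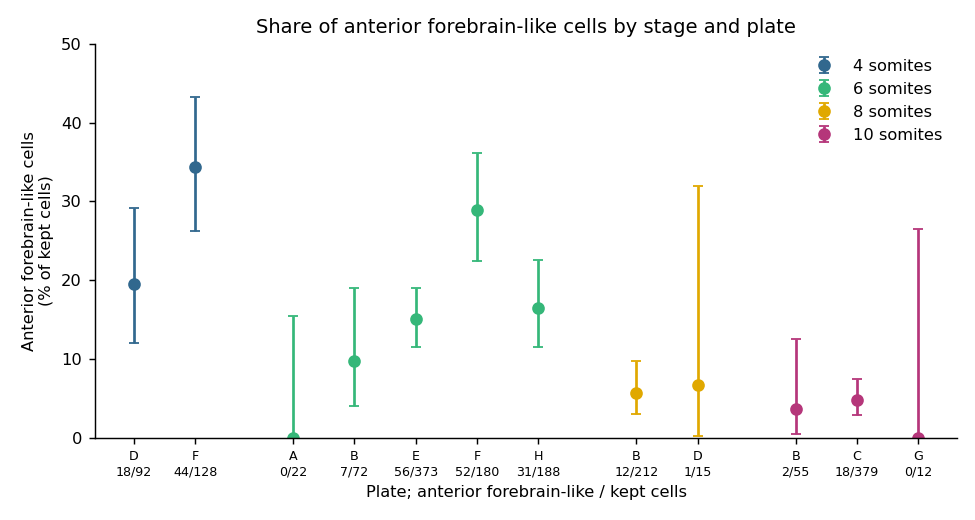
Share of anterior forebrain-like cells among kept cells (%, y axis) for each stage and plate with at least 10 kept cells (x axis, with the number of anterior forebrain-like and kept cells), as points with exact 95% intervals. The highest points are the 4 and 6 somite cells of plate F, at 34.4% and 28.9%, and every 8 and 10 somite point is below 7%.

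Depth was close between the groups, with a median of 402022 reads outside Rn45s in the anterior forebrain-like cells and 385389 in the other kept cells. At an equal depth of 50000 reads, the median was 5524 detected genes in the anterior forebrain-like cells and 5709 in the others. The table held 0 cells with identical profiles and 0 repeated well names. Of the 6 neuroepithelial markers Sox1, Sox2, Sox3, Sox21, Cdh2 and Hes5, at least 2 reached 20 CPM in 93.4% of these cells, against 44% of the others. At least 2 of 8 crest markers did so in 12 cells (4.98%) and in 59.9% of the others, although Sox10 was itself part of both the rule and the marker list. Measured by the same standard, the erythroid list was met by 0 cells (1.61% of the others) and the cardiac list by 2 (0.83% against 1.61%). The endothelial list was met by 9 cells (3.73% against 17.8%) and the endoderm list by 15 (6.22% against 8.54%). The notochord, floor plate and prechordal plate list was met by 50.2% of the anterior forebrain-like cells and 4.91% of the others, but it holds Foxd4, a gene of the rule. Of its 9 other genes 3 were measured. Dkk1 and Foxa2 were called higher by the comparison described further on and Shh was not, with a median log2 ratio of 2.50, while the notochord factor Noto had 0 reads in the group. A single cell held 82.7% of all cardiac reads of the group, on the CPM scale. The neuroepithelial name in the label is borne by the 6 neuroepithelial markers, while the labelled cell type, neural crest, was met by few of these cells. Neither trait was particular to them. In the midbrain-hindbrain boundary-like cells described further on, 94.2% met the neuroepithelial markers and 4.49% the crest markers. At least 2 of the surface ectoderm markers Epcam, Cdh1, Krt18, Tfap2c and Grhl2 were present in 44.4% of the anterior forebrain-like cells, against 29.2% of the others. At 6 somites the shares were 39.7% and 35.7%, and at 8 and 10 somites the other cells had the larger share. By the 2-gene standard, the longer surface ectoderm and placode list was met by 67.6% of the anterior forebrain-like cells and 51.7% of the others. Of its 12 measured genes, 0 were called higher and 5 lower, with a median log2 ratio of -2.74 (strata -4.64 to -0.35). The anterior forebrain-like cells with surface ectoderm markers are described on their own further on.

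The genes of the rule were unevenly shared out. Hesx1, a homeobox repressor of the early forebrain, reached 20 CPM in 83.4% of the anterior forebrain-like cells. Foxd4, a forkhead factor that in frog embryos keeps neural precursors immature, did so in 80.9%, and Fezf1, a zinc-finger repressor of the forebrain, in 74.7%. The eye field factors Rax and Lhx2 were present in 56.4% and 49.4%. Exactly 2 markers were found in 62 cells, 3 in 66, 4 in 56 and all 5 in 57. The commonest combination was thus all 5, followed by Fezf1, Hesx1 and Foxd4 together in 33 cells and Hesx1 with Foxd4 in 32. On mm10 the GENCODE vM21 gene models place Hesx1 at chr14:26994416-27002329 (plus strand), Foxd4 at chr19:24899236-24901197 (minus), Fezf1 at chr6:23245044-23248362 (minus), Lhx2 at chr2:38339281-38369733 (plus) and Rax at chr18:65928277-65939787 (minus).

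The marker mix differed between stages. Hesx1 was present in 96.8% of the anterior forebrain-like cells at 4 somites, 85.6% at 6, 61.5% at 8 and 40% at 10. Foxd4 had the same order, with 95.2%, 82.2%, 69.2% and 35%. Both genes were thus near-universal at the first stage and present in a minority of cells at the last. Fezf1 ran the other way, with 64.5%, 74.7%, 92.3% and 95%, as did the share with Rax, which was 43.5%, 56.2%, 84.6% and 80%. Lhx2 was present in 32.3%, 50%, 84.6% and 75% of the cells at these stages. The summed levels had similar orders: Hesx1 stood at 150.3, 133.6, 48.2 and 48.2 CPM, and Rax at 93.8, 123.4, 197.4 and 206.8 CPM at 4, 6, 8 and 10 somites. These 5 genes chose the cells, so their levels are a description. The later stages rest on 13 and 20 cells.

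Near the threshold the choice was continuous. The second-highest marker of the lowest accepted cell was at 20.1 CPM and that of the highest rejected cell without Sox10 and Kdr at 19.6 CPM. Between 20 and 30 CPM lay 15 accepted cells, and between 10 and 20 CPM lay 17 rejected ones. Of the accepted cells, 93.4% had 0 Sox10 reads and 96.3% had 0 Kdr reads.

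Genes outside the rule were compared within each stage and plate that held at least 5 anterior forebrain-like and 10 other cells. There were 8 such strata. Reads were summed over cells, 0.5 reads were added, and the log2 ratio of CPM was averaged over the strata with equal weight. A gene was called when its mean ratio was at least 2-fold and its sign the same in all 8 strata. Of 10204 genes with at least 5 CPM in either group, 1.34% were called higher in the anterior forebrain-like cells and 2.75% were called lower. The values below are read against those shares. Because the cells were chosen by 7 genes of the same profiles, the counts describe the chosen cells.

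Forebrain transcription factors that the rule did not use were higher in the anterior forebrain-like cells. Six3, a homeobox factor that restricts Wnt signalling and is needed for the forebrain and eye, stood at 61.4, 59.1, 88 and 63.2 CPM in them at 4, 6, 8 and 10 somites, against 3.02, 3.81, 3.37 and 1.72 CPM in the other cells. The lowest anterior forebrain-like stratum, at 50.9 CPM, was above the highest stratum of other cells, at 8.81 CPM. The mean log2 ratio of Six3 was 4.28 (SD over strata 0.95, n = 8), and 61.8% of the anterior forebrain-like cells had at least 20 CPM, against 4.98% of the others. Six3os1, the antisense transcript that overlaps Six3, had a mean log2 ratio of 3.93. Six3 lies at chr17:85613608-85629302 on the plus strand and Six3os1 at chr17:85600651-85618398 on the minus strand. The sources do not say whether counting used strand, so reads of these overlapping genes cannot be told apart.

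Lhx5, a LIM factor of the anterior neural plate, was at 162.7, 214.5, 198.9 and 281.7 CPM in the anterior forebrain-like cells at 4, 6, 8 and 10 somites, against 39.2, 31.4, 13.6 and 8.05 CPM in the other cells. Its mean log2 ratio was 3.15 (SD 1.08), and it was present in 86.3% of the anterior forebrain-like cells and 19.8% of the others. Otx2, a homeobox factor of the forebrain and midbrain, stood at 157.95, 154.6, 195.997 and 188.3 CPM in the anterior forebrain-like cells, against 60.2, 41.1, 31.8 and 16 CPM in the others. For both genes the level in the chosen cells changed little or grew with stage while that in the other cells fell, so the gap was widest at 10 somites. Otx2 had a mean ratio of 2.19 (SD 0.82), and its lowest stratum of anterior forebrain-like cells (115.5 CPM) was above the highest of other cells (70.1 CPM). Its paralogue Otx1 had a ratio of 2.53 (SD 0.64), with 64.9 CPM in the pooled anterior forebrain-like cells and 12.6 CPM in the others.

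Pax6, which drives eye and forebrain development, was at 23.7, 42.9, 103.9 and 106.2 CPM in the anterior forebrain-like cells at 4, 6, 8 and 10 somites, against 4.08, 7.69, 9.91 and 7.13 CPM in the other cells. It was thus higher at every stage, by a mean log2 ratio of 2.92 (SD 0.89). Fezf2, a zinc-finger factor of the forebrain related to Fezf1, stood at 15.4, 17.5, 16.8 and 40.9 CPM, against 1.95, 0.85, 0.94 and 0.25 CPM in the others, with a mean ratio of 5.30 (SD 2.182). Fezf2 was present in 26.1% of the anterior forebrain-like cells and 1.08% of the others. Emx2, which patterns the dorsal telencephalon, had 8.63, 11.8, 12.7 and 19.8 CPM against 2.07, 1.10, 0.81 and 0.87 CPM in the others, a mean ratio of 3.63 (SD 0.86). These 3 factors were found in some of the anterior forebrain-like cells and not in most: Pax6 in 46.9%, Fezf2 in 26.1% and Emx2 in 20.3%.

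**Figure D2:**
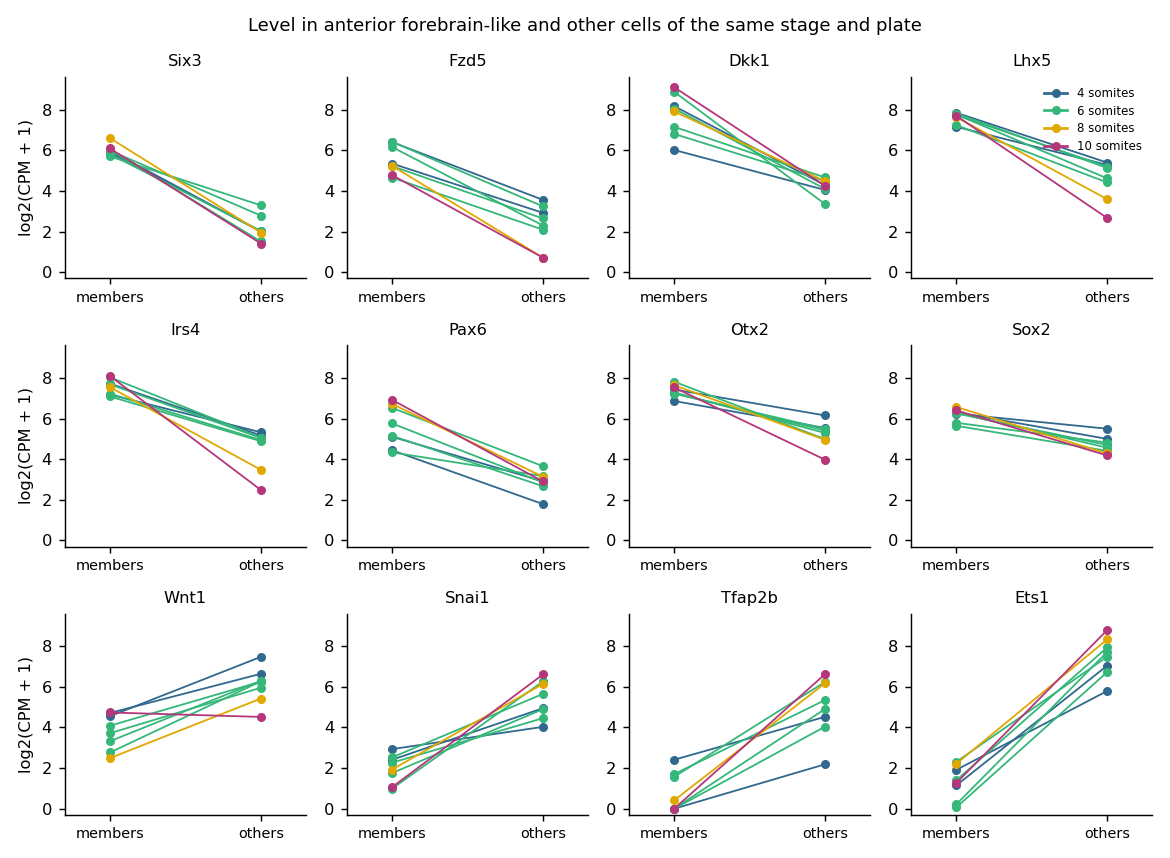
Levels of 12 genes as log2(CPM + 1) of summed reads (y axis) in anterior forebrain-like cells (left) and other kept cells (right) of the same stage and plate, 1 line for each of the 8 strata, coloured by stage. Lines for Six3, Fzd5, Dkk1, Lhx5, Irs4, Pax6, Otx2 and Sox2 all descend to the right, those for Snai1, Tfap2b and Ets1 all climb, and those for Wnt1 climb in 7 of 8 strata.

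The wider forebrain lists show which regions these cells held. Of the 12 anterior neural plate genes, all 12 were measured, 8 were called higher and 1 lower, and their median log2 ratio was 1.69 (strata 1.15 to 2.49), beside a median of -0.04 over all 10204 genes. The 8 were Otx1, Otx2, Lhx5, Fezf2, Six3, Shisa2, Sfrp1 and Lrp2, and the lower one was Cyp26c1, an enzyme that breaks down retinoic acid, at -3.67. Of 10 eye field genes outside the rule, 4 reached 5 CPM and 2 were called higher, Six3 and Pax6. The telencephalon and anterior neural ridge list went both ways, with 3 of 9 measured genes higher, 2 lower and a median of -0.90. Its higher genes were Fezf2, Lhx5 and Emx2, and Nr2f1, a nuclear receptor that in the later cortex marks the caudal side, was lower at -4.26. Fgf8, the signal of the anterior neural ridge and of the midbrain-hindbrain boundary, was lower at -3.10, with 0 CPM in the anterior forebrain-like cells at both 8 and 10 somites. Among 5 measured hypothalamus and ventral forebrain genes 2 were called higher. These were Foxa2, a floor plate factor, with a ratio of 2.50 (SD 1.53), and Nkx2-1, the homeobox factor of the hypothalamus, with 4.44 (SD 3.18). Nkx2-1 rested on few cells, as it was present in 4.98% of the group and in strata without its reads the ratio is set by the 0.5 added reads.

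Several secreted regulators and receptors of Wnt signalling were higher. Fzd5, a Wnt receptor of the eye field, had 73.3, 68.97, 33.6 and 25.3 CPM in the anterior forebrain-like cells at 4, 6, 8 and 10 somites, against 9.11, 5.02, 1.58 and 0.62 CPM in the other cells, a mean log2 ratio of 3.74 (SD 1.25). Dkk1, a secreted blocker of Wnt co-receptors needed for the head, stood at 116.7, 165.2, 231.9 and 579.2 CPM against 16.7, 19.8, 23.2 and 20.1 CPM in the other cells. The level of Fzd5 was highest at 4 somites and that of Dkk1 at 10 somites, and in no stratum did either group's values reach the other's. Dkk1 had a ratio of 3.63 (SD 1.28) and was present in 49.4% of the anterior forebrain-like cells and 14.4% of the others. Shisa2, which retains Wnt and FGF receptors inside the cell, had 619.5, 464.2, 362.3 and 223.001 CPM against 220, 120.9, 39.5 and 40.97 CPM, and a ratio of 1.91 (SD 0.80). The secreted antagonist Sfrp1 had a ratio of 1.03 (SD 0.35). Others of the antagonist list had the opposite sign without being called. Dkk3, a secreted relative of Dkk1, was at 2.76 CPM in the anterior forebrain-like cells and 8.34 CPM in the others, and lower in 7 of 8 strata (ratio -2.78). Sfrp5, a relative of Sfrp1, was at 2.61 CPM against 9.56 CPM and lower in 6 of 8 strata (ratio -2.49). In all, 3 of 8 measured Wnt antagonists were called higher and 0 lower, with a median of 0.88.

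The genes that report active signalling pointed down or stayed near the others. Of 8 measured Wnt targets 0 were higher and 2 lower, with a median log2 ratio of -0.72. The lower ones included Nkd1, a feedback inhibitor, with 37.6 CPM in the anterior forebrain-like cells and 101.2 CPM in the others (ratio -1.80, SD 0.56). Axin2 stood at 10.9 CPM against 25.7 CPM, a ratio of -1.15 that missed the call because 1 stratum was at 0.12. Among 8 FGF targets, 2 were lower, namely Dusp6, the phosphatase that damps ERK (62.9 against 162.2 CPM, ratio -1.31), and Spry4, an inhibitor of the pathway (ratio -1.81). The BMP and TGFb list had 4 of 7 genes lower and a median of -1.06, with Msx2, a homeobox target of BMP, at 7.04 CPM in the anterior forebrain-like cells and 28.4 CPM in the others. The medians of the Hedgehog list (0.04) and the Notch list (0.29) lay near that of all genes. In the retinoic acid list 1 of 7 genes was higher and 3 were lower. The higher one was Aldh1a2, which makes retinoic acid, at 10.4, 23.9, 139.2 and 87.9 CPM in the anterior forebrain-like cells against 2.55, 3.05, 3.99 and 8.90 CPM in the others over the 4 stages. Its ratio was 3.33 (SD 1.75), and 1.23 when the cells with surface ectoderm markers were left out. That step removed 86.4% of the anterior forebrain-like cells on plate F at 4 somites, so some strata rested on few cells. Cdh1, which is among those markers, was present in 24.5% of the group's cells with Aldh1a2 and 38.8% of those without it. What lowered the ratio was not tested. Crabp1, a carrier of retinoic acid and a known crest marker, was at 33.2 CPM against 282.2 CPM in the others, a ratio of -2.16.

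Other genes among the highest have no forebrain role that is as well established. Irs4, an adaptor of the insulin receptor, was at 159.1, 184.1, 191.8 and 252.5 CPM in the anterior forebrain-like cells at 4, 6, 8 and 10 somites, against 37.4, 32.5, 14.2 and 7.08 CPM in the other cells. Eras, a Ras protein described in mouse embryonic stem cells, had 61.4, 48.4, 48.9 and 33.8 CPM against 22.5, 9.14, 1.92 and 1.47 CPM. Their mean log2 ratios were 3.10 (SD 1.32) and 2.94 (SD 1.40), and 85.5% and 70.5% of the anterior forebrain-like cells had them at 20 CPM or more. Ermn, an actin-binding protein known from oligodendrocytes, had a ratio of 3.40 (SD 1.06), with 39.8 CPM in the anterior forebrain-like cells and 2.99 CPM in the others. Lrp2, the endocytic receptor megalin on the apical side of the neuroepithelium, was at 167.3 CPM against 55.9 CPM (ratio 1.46, SD 0.85).

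Genes of the early epiblast were partly higher. Pim2, a serine kinase of the primed epiblast list, stood at 680.7, 483.3, 113.1 and 28.1 CPM in the anterior forebrain-like cells at 4, 6, 8 and 10 somites, against 276.8, 85.1, 9.70 and 6.13 CPM in the other cells. Both groups fell with stage and the anterior forebrain-like cells were higher at each, by a mean log2 ratio of 2.40 (SD 0.84). With Otx2 and Pou3f1, a POU factor of epiblast and neural plate (1.46, SD 0.30), Pim2 made up the 3 of 8 measured primed epiblast genes that were called higher, and 0 were lower. Among 5 core pluripotency genes the only 1 called higher was Sox2, which is also a neural gene. Pou5f1 was present in 45.2%, 22.6%, 0% and 0% of the anterior forebrain-like cells at the 4 stages, against 33.5%, 15.5%, 0.47% and 0.47% of the others. Summed over all stages it stood at 16.97 CPM against 7.34 CPM, but within strata its mean ratio was 0.09, with strata from -1.77 to 0.83. In each of the 6 strata of 4 and 6 somites the share of cells with Pou5f1 was higher in the anterior forebrain-like cells, for example 12.9% against 7.01% on plate H and 54.5% against 48.8% on plate F at 4 somites. Its level was higher in the 4 strata of 6 somites and lower in both of 4 somites. The part of stage in the pooled difference was not tested. Nanog, at 4.43 CPM against 3.60 CPM, was below the minimum level.

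The crest programme was low. Ets1, an Ets factor of migrating cranial crest and of endothelium, had 2.39, 0.54, 3.48 and 1.21 CPM in the anterior forebrain-like cells at 4, 6, 8 and 10 somites, against 84.8, 184.8, 317.9 and 425.1 CPM in the other cells. The other cells gained Ets1 with stage and the anterior forebrain-like cells did not, and 1.66% of them had it at 20 CPM, against 62.1% of the others. The mean log2 ratio of Ets1 was -7.38 (SD 2.20), and of the 10 lowest genes of the rule for naming it was the lowest. The rest were Hapln1, which links hyaluronan in the matrix (0.90 against 93.96 CPM), the crest factor Tfap2b (0.59 against 54.1 CPM), Fam212a (0.76 against 108.3 CPM), the TGFb co-receptor Eng (0.35 against 27.8 CPM), Rhoj, Bgn and Elk3, the neurotrophin receptor Ngfr (0.91 against 90.4 CPM) and the endothelin receptor Ednrb (0.83 against 26.7 CPM). In each of these but Ets1 some strata held 0 reads of the anterior forebrain-like cells, so their log2 ratios, from -7.24 for Hapln1 to -5.23 for Ednrb, depend on the added reads. With such strata set at 3 reads, Hapln1 was at -6.73 and Bgn, a proteoglycan, at -5.04.

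Of the crest specifiers 9 of 15 measured genes were called lower and 0 higher, with a median log2 ratio of -3.39 (strata -5.03 to -1.34). Snai1, a repressor of cadherins at the onset of migration, had 6.08, 3.28, 2.73 and 0.94 CPM in the anterior forebrain-like cells at 4, 6, 8 and 10 somites, against 21.1, 39.9, 68.8 and 96.9 CPM in the others. Sox9, an early crest factor that the neural plate also expresses, was at 26.2 CPM against 88.8 CPM, a ratio of -2.17. Of 14 genes of the transition to mesenchyme 5 were lower, and of 11 ectomesenchyme genes 8 were lower. Endothelial genes had 7 of 9 lower, with a median of -4.61, and the head mesoderm genes Tbx1, Foxc1 and Foxc2 made up 3 of 4. The rule excluded cells with Sox10 or Kdr, so the low levels of crest and vascular genes belong in part to the choice of cells.

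**Figure D3:**
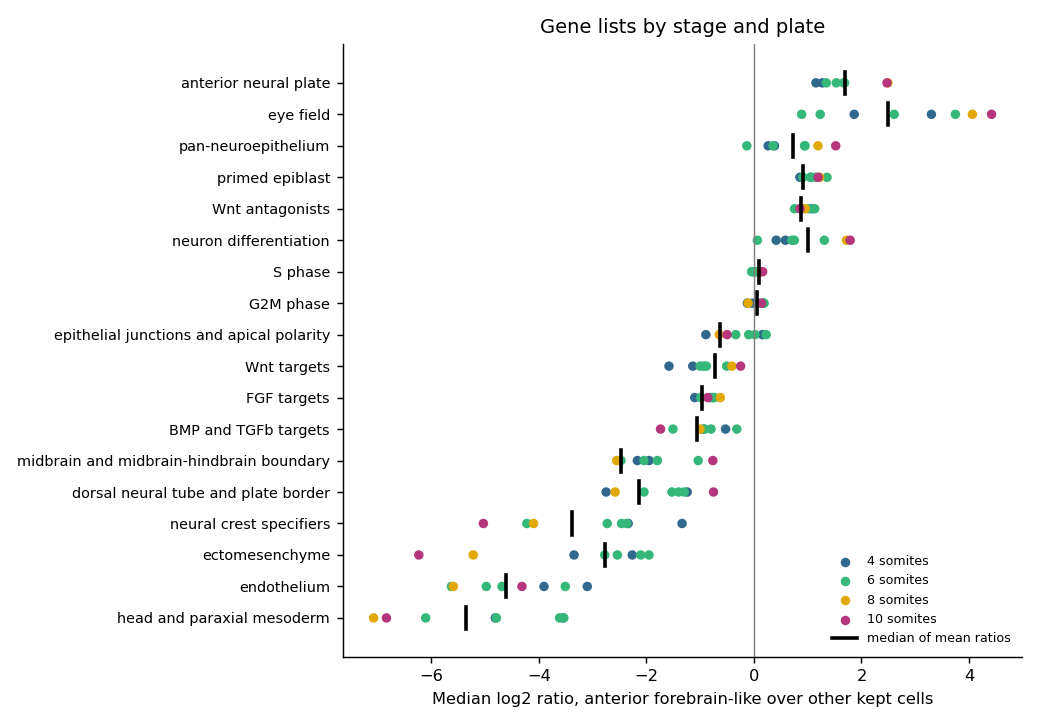
Median log2 ratio of anterior forebrain-like over other kept cells (x axis) for 18 gene lists (y axis), with 1 point for each of the 8 strata coloured by stage and a black bar at the median of the genes' mean ratios. The anterior neural plate bar is at 1.69 and the crest specifier bar at -3.39, with all 8 points on the same side of 0 for each, while the S phase and G2M phase points lie between -0.12 and 0.19.

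Several more posterior and dorsal brain genes were low as well. Of 8 measured midbrain and midbrain-hindbrain boundary genes 3 were called lower and 0 higher, with a median log2 ratio of -2.47. Pax8 had 2.62 CPM in the anterior forebrain-like cells and 27.3 CPM in the others, and En1, which defines the midbrain-hindbrain boundary, 3.70 CPM against 12.9 CPM. Of 5 measured hindbrain and Hox genes 1 was called lower and 0 higher, with a median of -1.95 and 2 of 8 strata above 0. The lower one was Gbx2, a factor of the anterior hindbrain, at 2.49 CPM against 18.2 CPM. Egr2, a factor of the hindbrain segments, was higher in 3 of 8 strata, with its highest level on plate B at 6 somites, 192.4 CPM against 11.4 CPM. The dorsal neural tube list had 4 of 10 genes lower, among them Wnt3a (0.58 against 10.7 CPM) and Msx1 (3.09 against 16.4 CPM), both known at the roof plate.

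Wnt1, whose promoter drives the Cre of these embryos, was at 24.6, 11.1, 4.39 and 24.1 CPM in the anterior forebrain-like cells at 4, 6, 8 and 10 somites, against 130, 74.8, 49.4 and 24.3 CPM in the other cells. It was lower in 7 of 8 strata, with a mean log2 ratio of -2.40, and was not called because of the 10 somite plate C, where it stood at 25.6 CPM against 21.9 CPM. Wnt1 was present in 15.8% of the anterior forebrain-like cells and 32.1% of the others. Read counts of Cre and of tdTomato were not analysed here, so how these cells came to be in the Tomato sort was not tested.

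General neural genes were closer to the other cells. Sox2, the core factor of neural progenitors, had 75.4, 56.9, 90.1 and 83.2 CPM in the anterior forebrain-like cells at 4, 6, 8 and 10 somites, against 38.9, 23.8, 19.6 and 18 CPM in the others, a mean log2 ratio of 1.55 (SD 0.57). Of 13 pan-neuroepithelial genes 2 were called higher and 1 lower, and their median was 0.74. The lower one was Hes3, a Hes repressor strongest near the midbrain-hindbrain boundary, at 30.4 CPM against 57.3 CPM. Stmn2, a microtubule regulator of neurons, was at 56.8 CPM against 23.7 CPM (ratio 1.296), and the neuronal tubulin Tubb3 at 210.1 CPM against 94.8 CPM (ratio 1.01), and these were 2 of the 3 neuronal genes measured. Of the 20 S phase and 20 G2M genes 0 were called in either direction, with medians of 0.09 and 0.05. Glycolysis genes had a median of -0.01, and dissociation stress genes, a sign of handling, -0.50 with 1 of 11 lower.

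A closer comparison used other Sox2-positive cells (18.6% of kept cells) without Sox10 and Kdr in place of all other cells, over 7 strata. Against them 81 genes (0.80%) were higher and 130 (1.29%) lower, and 45 of the higher and 45 of the lower genes were among those of the main comparison, which is 32.8% of its higher and 16% of its lower genes. Six3 had a log2 ratio of 4.36 over these cells, Fezf2 5.24, Dkk1 3.28, Lhx5 2.70 and Pax6 2.21. Sox2 itself was at 0.03, and the crest specifier median moved to -0.27, while that of the anterior neural plate list was 0.79. The comparison cells had to have Sox2 and to lack Sox10, so the Sox2 and crest values belong in part to their choice. The ratios of Six3 and Fezf2 were thus about as large against other neural cells, and those of Dkk1, Lhx5 and Pax6 were smaller. Also smaller were those of Otx2 (1.12), Foxa2 (0.82), Pou3f1 (0.51) and Lrp2 (0.46). The eye field median went from 2.50 to 0.88, primed epiblast from 0.92 to 0.45, BMP and TGFb from -1.06 to -0.40 and pan-neuroepithelium from 0.74 to -0.56. The minimum level was applied anew in this comparison, so the genes behind a list median can differ between the comparisons. For the eye field they did, and its 0.88 was the value of Six6, beside 4.36 for Six3 and 2.21 for Pax6. Wnt targets (-0.72 to -0.67) and FGF targets (-0.96 to -1.01) changed little. The crest specifier median was thus small against these cells without Sox10 and Kdr, and Snai1 was at -0.41. Other crest-related values stayed lower, with the ectomesenchyme median at -2.01 (main comparison -2.77). Ets1 was at -2.63, Ednrb at -2.50, Hapln1 at -4.17 and Crabp1 at -2.01. Tfap2b, Foxd3 and Ngfr did not reach the minimum level in this comparison, so they have no value in it.

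Levels in the 2 most similar kinds of cell show the same order for these genes. Six3 was at 62.1 CPM in the anterior forebrain-like cells, 0.75 CPM in midbrain-hindbrain boundary-like cells (9.03% of kept cells) and 6.78 CPM in surface ectoderm-like cells (12.9%). Shisa2 was at 488.6, 48.4 and 224.1 CPM in the same order, and Otx2 at 160.97, 55.1 and 75.4 CPM. The boundary-like cells were the higher ones for Hes3, at 30.4 CPM in the anterior forebrain-like cells and 281.7 CPM in the boundary-like cells, and for the FGF ligand Fgf15, at 178.2 CPM against 348.4 CPM. Membership in these comparison groups was set by at least 2 of their own markers, with Sox10 and Kdr below 20 CPM, and anterior forebrain-like cells that met it were left out of both. With those cells kept in, where they made up 7.14% and 32.4%, Six3 was at 2.11 CPM in the cells with boundary markers and 25.9 CPM in those with surface ectoderm markers, and Otx2 at 60.2 and 101.6 CPM.

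Genes outside the rule differed with the number of rule genes a cell had. Among the cells without Sox10 and Kdr, Six3 was present in 2.17% of those with 0 markers, in 18.6% of those with 1, and in 27.4%, 54.5%, 82.1% and 87.7% of those with 2, 3, 4 and 5. Lhx5 had a similar order, from 20.8% at 0 markers through 40.7%, 72.6%, 87.9% and 94.6% to 91.2% at 5. Otx2 was already present in 70.8% of cells with 1 marker, and Sox2 in 61.1%. Wnt1 was present in 38.8%, 36.3% and 37.1% of cells with 0, 1 and 2 markers, and in 13.6%, 7.14% and 3.51% of those with 3, 4 and 5. En1 was present in 38.8%, 30.1% and 20.97% of cells with 0, 1 and 2 markers, and in 0%, 3.57% and 1.75% of those with 3, 4 and 5. The 62 cells with exactly 2 markers thus shared Otx2 and Lhx5 with the rest of the group and had Six3 less often, and Wnt1 and En1 more often.

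**Figure D4:**
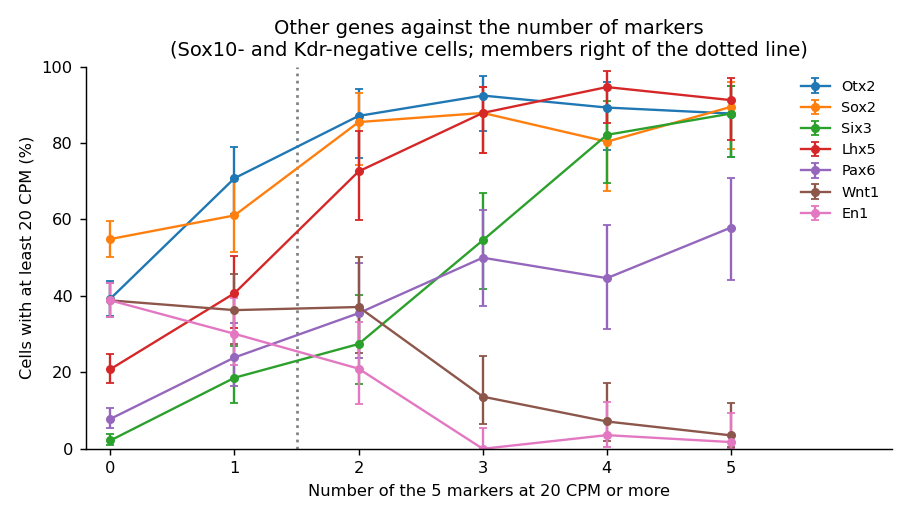
Percentage of cells with at least 20 CPM of 7 genes (y axis, with exact 95% intervals) against the number of the 5 rule genes at 20 CPM or more (x axis), in cells without Sox10 and Kdr. Six3 was present in 2.17% of cells with 0 markers and 87.7% with 5, and Wnt1 in 38.8% with 0 and 3.51% with 5.

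Among the anterior forebrain-like cells themselves, Six3 and Rax were found together. Six3 was present in 80.1% of those with Rax and 38.1% of those without it. In the cells with Six3, Wnt1 was present in 8.72%, against 27.2% of the 92 without Six3. Lhx2 went with Pax6, which was present in 62.2% of cells with Lhx2 and 32% of those without. Either Six3 or Pax6 was present in 80.5% of the cells, made up of 70.97% at 4 somites, 80.8% at 6, 92.3% at 8 and 100% at 10. Both were present in 68 cells (28.2%). Stage and these pairs moved together, so how much of each pairing was due to stage was not tested.

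The epithelial cadherin was present in the early cells alone. Cdh1, which holds epithelia together before the neural plate changes over to Cdh2, was present in 70.97% of the anterior forebrain-like cells at 4 somites, 28.8% at 6, 0% at 8 and 0% at 10, against 44.9%, 25.3%, 6.07% and 8.22% of the other cells. Cdh2, the cadherin of the neural tube, was present in 90.3%, 84.9%, 100% and 100% of them. Cells with both cadherins made up 61.3% of the group at 4 somites and 20.5% at 6, and cells with Cdh2 and without Cdh1 made up 29.03% and 64.4%. The order held on plate F, where both cadherins were found in 70.5% of 44 cells at 4 somites and 26.9% of 52 at 6. Over strata, Cdh1 had no common direction between the groups, with log2 ratios from -7.69 to 0.72, the lowest of them in strata with 0 reads. Of 13 measured epithelial junction genes 0 were called.

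The cells with at least 2 surface ectoderm markers were mostly early. They made up 77.4% of the anterior forebrain-like cells at 4 somites (48 of 62, interval 65.03 to 87.1%), 39.7% at 6 (58 cells), 1 of 13 at 8 and 0 of 20 at 10. Of the other kept cells 53.2%, 35.7%, 19.6% and 14.6% had such markers at these stages. On plate F the shares were 86.4% at 4 and 50% at 6 somites, against 54.8% and 43% of the other cells. At 6 somites they were 41.1% on plate E, 25.8% on H and 14.3% on B, against 34.4%, 29.3% and 33.8%. Epcam, an epithelial adhesion molecule, was present in 76.6% of the group's cells with surface ectoderm markers and 3.73% of the rest of the group. Cdh1 was present in 74.8% against 4.48%, as the choice of these cells by these genes required. Six3 and Otx2 were found about as often in both, with Six3 in 61.7% against 61.9% and Otx2 in 88.8% against 89.6%. Other forebrain genes differed, with Pax6 in 38.3% against 53.7%, Rax in 45.8% against 64.9%, Fezf1 in 67.3% against 80.6% and Hesx1 in 93.5% against 75.4%. The cells with surface ectoderm markers were the earlier ones, and the part of stage in these differences was not tested. Sox2 was present in 81.3% against 89.6%. The epidermal factor Trp63 had 0 reads in the whole group, and the ectodermal factors Tfap2a and Tfap2c were present in 2.80% and 8.41% of the cells with surface ectoderm markers. Pou5f1 was present in 39.3% of them, against 14.2% of the rest. Without these cells, 1.14% of genes were higher and 3.11% lower than in the other kept cells. These genes held 67.9% of the higher and 77.9% of the lower genes of the main comparison, and Six3 had a ratio of 4.16.

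Several forebrain genes also differed between stages within the group. Pax6 was present in 30.6% of the anterior forebrain-like cells at 4 somites, 47.3% at 6, 84.6% at 8 and 70% at 10, and Six3 in 56.5%, 60.96%, 61.5% and 85%. Nkx2-1 was present in 0%, 2.05%, 15.4% and 35%. All 3 genes were thus present in a larger share of the cells at 10 than at 4 somites. No plate held 5 or more of these cells at both an early and a late stage apart from plate B, with 7 at 6 and 12 at 8 somites, so stage and plate cannot be told apart in this trend.

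**Figure D5:**
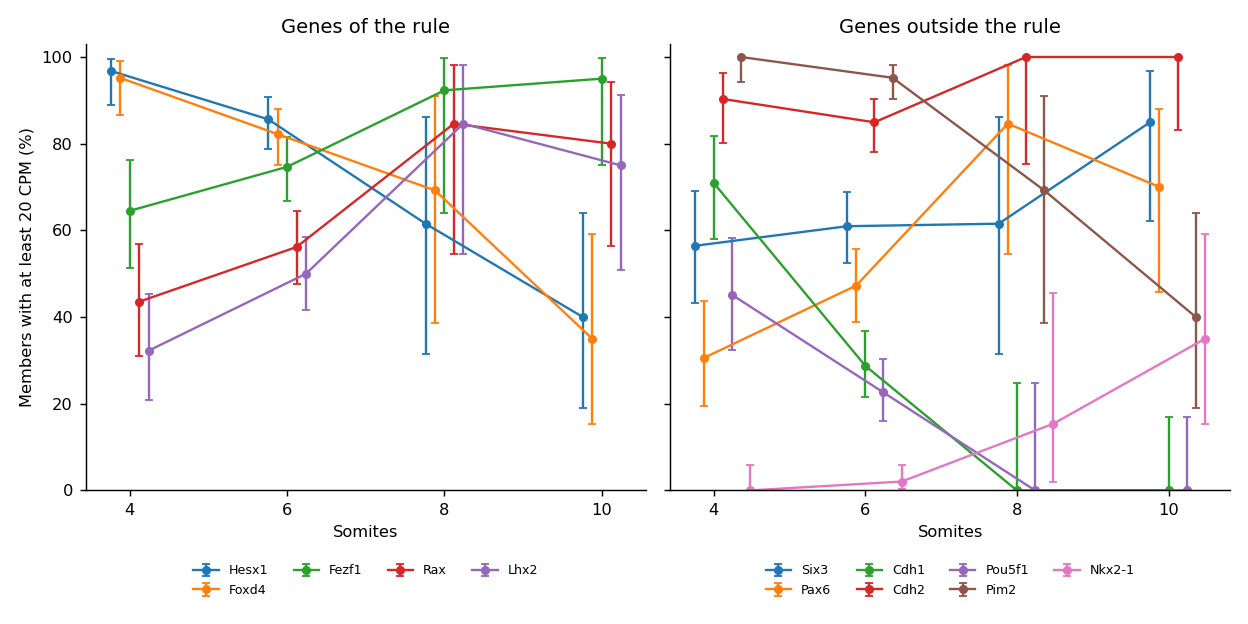
Percentage of anterior forebrain-like cells with at least 20 CPM (y axis, with exact 95% intervals) at 4, 6, 8 and 10 somites (x axis), for the 5 genes of the rule (left) and 7 genes outside it (right). Cdh1 was present in 70.97% of cells at 4 somites and 0% at 8 and 10, Pax6 in 30.6% at 4 and 70% at 10, and Nkx2-1 in 0% at 4 and 35% at 10.

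Plate F allowed 6 and 4 somites to be compared within 1 plate, with 52 and 44 anterior forebrain-like cells. Of 10118 genes with at least 5 CPM at either stage, 6.34% were at least 2-fold higher at 6 somites and 5.59% at least 2-fold lower. With 1 pool at each stage, these counts hold counting error along with any change. Of the 12 anterior neural plate genes 0 were higher and 1 lower, with a median log2 ratio of -0.13 beside 0.01 over all genes. Of 13 epithelial junction genes 0 were higher and 3 lower, with a median of -0.44, beside 0.14 in the other kept cells. Epcam was at 49.3 CPM at 6 somites and 93.4 CPM at 4, a ratio of -0.92, and Cdh1 at 112.2 CPM and 130.9 CPM, although 44.2% of cells had it at 6 and 84.1% at 4. The median of the core pluripotency genes was -0.50, with 2 of 8 lower, beside -0.57 in the other kept cells. Pou5f1 stood at 23.1 CPM at 6 somites and 33.8 CPM at 4, a ratio of -0.55, and its ratio in the other kept cells was -1.05. The fall of these genes was thus not particular to the anterior forebrain-like cells. The S phase and G2M lists had 0 genes past 2-fold.

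Among the more abundant genes, the highest at 6 over 4 somites on this plate were Alkbh8, which modifies transfer RNA (52.3 against 15.1 CPM, log2 ratio 1.79), the lipid kinase Pik3c2a (97.9 against 29.3 CPM, 1.74) and Usp24, which removes ubiquitin (77.1 against 24.3 CPM, 1.67). Acaca, the enzyme that starts fatty acid synthesis, R3hcc1l and Mtcl1 followed at 1.64, 1.51 and 1.48. The lowest were Galnt16, which adds sugars to proteins (20.3 against 62.2 CPM, ratio -1.61), and Irx3, a homeobox factor of the neural plate behind the forebrain (21.4 against 54.8 CPM, -1.36). Adck1, Parva, Hic2 and Raly lay between -1.31 and -1.18. Some of these genes also moved in the other kept cells, with ratios of 0.88 for Pik3c2a, 0.82 for Usp24, -0.84 for Irx3 and -0.95 for Raly. Others did not, with 0.05 for Alkbh8 and 0.39 for Parva. Over all plates the ratio in the anterior forebrain-like cells was 0.94 for Alkbh8 and -1.44 for Irx3, values that hold the same cells of plate F and so are no separate check.

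A further 78 cells had at least 2 of the 5 markers together with Sox10, Kdr or both, and so stood among the other cells. Plate B held 40 of them, 11.8% of its kept cells, plate D 11 (10.3%) and plate A 9 of its 22 kept cells (40.9%), the highest share of a plate. By stage, 5, 31, 24 and 18 of them were of 4, 6, 8 and 10 somites. Fezf1 was present in 89.7% of them and Six3 in 47.4%, against 0.56% of the other Sox10-positive cells for Six3. Ets1 was present in 89.7% against 97.2%, and Tfap2b in 73.1% against 85.3%. Their median was 7197 detected genes at 50000 reads, against 5937.5 in the other Sox10-positive cells and 5524 in the anterior forebrain-like cells. Median levels lay between those of both groups, with Fezf1 at 45.2 CPM against 117.02 CPM in the anterior forebrain-like cells, and Sox10 at 176.4 CPM against 343.03 CPM in the other Sox10-positive cells. Whether a well held more than 1 cell or a cell both sets of transcripts was not tested. Without these 78 cells among the others, 1.41% of genes were higher and 2.86% lower in the anterior forebrain-like cells.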

How the data were processed

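The deposited table held counts, whole numbers of reads for each gene and cell, for 24920 genes, 92 spike-ins and 1778 cells, without molecular identifiers. Per the submitters' processing notes, STAR 2.6, bcl2fastq 2.18 and mm10 were used. Read counter, annotation and use of strand: not given in the sources used here. Cells with at least 50000 reads on genes and 1500 genes were kept. The 1728 kept cells were 220, 835, 227 and 446 at 4, 6, 8 and 10 somites, of which 62, 146, 13 and 20, or 241 in all, were anterior forebrain-like. Plates A to H stand for 6150653, 6150657, 6150662, 6150663, 7350589, 7350590, 7350657 and 7350658. No doublet caller was run, as cells were sorted 1 to a well.

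From these counts, CPM left out spike-ins and Rn45s. Shares have exact Clopper-Pearson intervals at 95%. Ratios used reads summed per stage and plate, with 0.5 reads added, over genes with at least 5 CPM. Called higher and lower were 137 and 281 genes, and 641 and 566 for 6 over 4 somites. At least 2 surface ectoderm markers were found in 107 of the members. Comparison groups held 322 other Sox2-positive, 156 boundary-like and 223 surface ectoderm-like cells. The ratios were checked on simulated counts with known changes in genes of at least 20 CPM. Those counts had no differences between cells or plates beyond depth and counting error. The check therefore does not cover genes with few reads or genes found in few cells. Thinning drew 50000 reads per cell (seed 7). edgeR 4.0.16 and DESeq2 1.42.0 gave alternative scaling factors only. Python 3.11.15 was used. Gene positions are GENCODE vM21 models on mm10, matched by symbol.

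The members, gene lists and comparisons were chosen with earlier results of these data known. Some genes stand in more than 1 list. Named were the 10 highest and 10 lowest called genes with at least 20 CPM in at least 20% of cells of the higher group, up to 3 of each list by absolute ratio, the rule genes with Wnt1, Pou5f1, Nanog and Sox2, and the 6 highest and 6 lowest of 6 over 4 somites with at least 50 CPM. Left out of the highest and lowest were the rule genes and unnamed, ribosomal, mitochondrial and sex-linked genes. Shisa2, Sfrp1, Otx1, Sox9, Epcam, Cdh2, Fgf15, Tfap2a and Trp63, members of the lists or markers, and the splits of the cells by Six3, Rax, Lhx2, Nkx2-1, Aldh1a2, surface ectoderm markers and marker number were chosen after their values were seen. A result for 1 further gene is not reported here.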

Additional observations from a re-analysis of the deposited data

Results flagged for a closer look

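In 3 cases a value was flagged. For the erythroid and FGF target lists 1 plate stood apart from the others, and a gap of this size is found by chance in about 5% of groups. Every gene list was screened, so some such gaps are found by chance alone. The G2M list was flagged for opposite signs at 4 and 6 somites, to which that 5% does not apply. The erythroid list, over 3 measured globin genes, had a median log2 ratio of -10.7 in the 6 somite cells of plate B, against a median of 1.90 over the 4 plates of that stage. On the other 3 plates of 6 somites these genes had 0 reads in both groups, so their values and that median come from the 0.5 added reads alone. The anterior forebrain-like cells held 10 reads of Hba-x in all, so the value reflects globin reads in other cells of that plate. The FGF target list was at -0.99 in the 6 somite cells of plate F, against a median of -0.76 over the same 4 plates.

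The G2M list had a mean of -0.077 over both 4 somite plates, with both below 0, and of 0.16 over the 4 plates of 6 somites, with all above 0. The difference between these stages was not tested, and 0 of the 20 G2M genes were called.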

How the results depend on the processing

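No paired analysis was possible because the labels carry no replicate numbers, although the ratios compare cells of the same stage and plate. The share of anterior forebrain-like cells, 13.9% over all stages, 28.2% at 4 and 17.5% at 6 somites, was 10.9%, 20.5% and 14.01% with the markers at 50 CPM and 10.4%, 18.2% and 13.4% when 3 markers were needed. With each plate left out in turn, the share over all stages lay between 10.2% (without plate F) and 16.5% (without plate C). By stage, the corresponding ranges were 19.6 to 34.4% for 4 somites, 14.4 to 19.5% for 6, 5.66 to 6.67% for 8 and 2.99 to 4.61% for 10.

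The 1.34% higher and 2.75% lower genes were 1.20 to 2.22% and 2.88 to 4.25% of the genes measured with each plate left out, both highest without plate F, which moved the number of genes by over 1.5 times. With no minimum level they were 7.70% and 2.33%, where 1492 genes were higher. In a stratum where neither group has reads of a gene, the added reads alone give a ratio above 0. This follows from the larger number of other cells, and so of their reads, in every stratum. How many of the 1492 genes rest on such strata was not tested. The shares of higher and lower genes were 3.52% and 5.19% with reads pooled over strata, and 0.80% and 1.29% against other Sox2-positive cells. Their number stayed within 1.5 times with means of CPM per cell, both other scalings, 5 added reads, 3 markers and a stricter cell filter, and with 3 alternatives added after seeing the data (without the cells with surface ectoderm markers, without the 78 cells with Sox10 or Kdr, and 0 reads set at 3). The 6.34% and 5.59% of genes for 6 over 4 somites were 3.03% and 1.81% at a minimum of 20 CPM and 3.36% and 2.52% with all plates.

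Among list medians with the same sign in all 8 strata, only that of endothelium reversed. It was 0.028 against other Sox2-positive cells, where 1 of its genes was measured. Lists without that common sign were not counted as reversed, and some of their medians changed sign too. Against other Sox2-positive cells the pan-neuroepithelium median was -0.56 (main comparison 0.74) and the Notch median -0.27 (0.29). Without the cells with surface ectoderm markers the caudal forebrain median was 0.94 (-0.48). Of the other list values 50 moved, and of the named gene values 55 moved (2.58%). The cause of these moves was not tested. The 13 and 20 cells of 8 and 10 somites limit what can be said there.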

Other observations

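A small set of the anterior forebrain-like cells had ventral genes. Nkx2-1, the homeobox factor of the hypothalamus, was present in 12 of them, 0 at 4, 3 at 6, 2 at 8 and 7 at 10 somites. Of these 12 cells 10 had Rax, 10 had Six3 and 12 had Otx2. Shh, the ventral signal, was present in 7 of the 12, against 3 of the cells without Nkx2-1 (1.31%), and the floor plate factor Foxa2 in 9 of the 12, against 28 of the cells without Nkx2-1 (12.2%). Pax6 was present in 2 of the 12, against 48.5% of the cells without Nkx2-1. The set was chosen after its values were seen, and its cells have no replicate.

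Aldh1a2, the enzyme that makes retinoic acid, was present in 53 anterior forebrain-like cells, 8 at 4, 30 at 6, 9 at 8 and 6 at 10 somites. None of the 12 cells with Nkx2-1 was among them. Lhx2 was present in 73.6% of the 53, against 42.6% of the cells without Aldh1a2, and Pax6 in 69.8% against 40.4%. Of the 50 cells left out for low reads or genes, 1 met the marker rule.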
